A study of Mus musculus with 6 samples.

Results

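The Myc network genes described here were Mycn, Myc, Mycl, Max, Mlx, Mxd1, Mxd3, Mxd4 and Mnt. They were chosen by name as the Myc family and its dimerization partners and antagonists, with earlier results of these data known. These 9 genes are among the 19057 that the array annotation names, and 16 of the 45281 probes carry their symbols. RNA from the lens placode area of mouse embryos, microdissected at stage E10.5, was measured on 6 Illumina mouse whole-genome bead arrays, 3 of CBP/p300 double conditional knockout (DCKO) embryos and 3 of WT embryos. By the study's methods, both genotypes carried floxed alleles of CBP and p300 (CBP/p300 fl/fl), with the Pax6-Cre transgene in DCKO and without it in WT. Control regions of Pax6 that are active in the lens drive this Cre, which is made in the surface cells of the head from which lens and cornea form. The sample records give a mixed strain background of FVB and 129, and they name the microdissected DCKO tissue surface ectoderm and the WT tissue lens placode, so the tissue label changes together with the genotype. By the records the RNA came from 3 embryos of a genotype, was combined, and was then amplified in triplicate, whereas the article speaks of biological replicates. If the RNA was pooled, the p-values measure only a technical spread between arrays.

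Myc, N-Myc (Mycn) and L-Myc (Mycl) are transcription factors that bind DNA at the E-box, a short palindromic motif, only when paired with Max through a helix-loop-helix and leucine zipper. Mxd1, Mxd3, Mxd4 and Mnt pair with Max too, and their dimers recruit Sin3 co-repressors to E-boxes that Myc dimers could otherwise occupy. Mlx is a Max-like partner that pairs with the glucose-responsive factors Mlxip and Mlxipl and with some Mxd proteins. In embryonic epithelia Myc proteins are known for growth, ribosome production and cell cycle entry, and Mycn is required for normal growth of the mouse lens.

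The arrays of a genotype correlated at 0.878 to 0.883 within DCKO, 0.930 to 0.934 within WT, and 0.837 to 0.857 between genotypes. Between 18724 and 19551 probes per DCKO array and between 18081 and 19769 per WT array were detected, meaning brighter than the array's negative controls at a detection p under 0.05. The deletion was checked on the targeted genes. None of the 3 Crebbp (CBP) probes passed the test, with log2 fold changes of -0.10, -0.57 and -0.76. Of 4 Ep300 (p300) probes, 1 was called lower in DCKO, undetected on 3 of 3 DCKO arrays and at least 2.87-fold lower (limma adjusted p = 0.0159). The others gave -0.19, -0.03 and a fitted -1.31. The probe at -1.31 was likewise undetected on 3 of 3 DCKO arrays, at least 2.09-fold lower (adjusted p = 0.0632). These 2 undetected probes entered the test through WT alone and had to differ. Whether these probes lie in the deleted exons is not known here. The tissue labels were checked on markers. Of 11 tested lens markers, 9 were called lower in DCKO, beside 2.78% of all tested genes. Of these, Cryaa and Crybb3 entered the test through WT alone and had to differ. Of 10 tested epithelial markers, 4 were called higher, beside 2.1% of all tested genes.

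Log2 levels below are values after background correction and quantile normalization of the bead intensities. Of the 16 probes, 10 were detected on at least 3 arrays and tested, which left Mxd3 and Mnt with no tested probe. Probes are termed called where the limma p, adjusted by Benjamini-Hochberg over the 19552 tested probes, was under 0.05. Among the 10 tested probes 1 was called lower in DCKO, against 2.81% of all tested probes, and 3 were called higher, against 1.77%. Together 4 of the 10 were called, against 4.58%. By the brightest tested probe of each gene, Mycn was called lower and Mxd1 and Mxd4 higher among 7 tested genes, against 2.78% lower, 2.1% higher and 4.88% in either direction of all 10123 tested genes. The DCKO and WT values did not overlap for 5 of the 10 probes, and the background for this was 27.4% of tested probes. Myc probe 2 and Mxd1 probe 2 passed the detection filter through a single genotype and had to differ, so these counts are a description. Probes of a gene are numbered by their mean level over the 6 arrays, the brightest as probe 1.

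**Figure D1:**
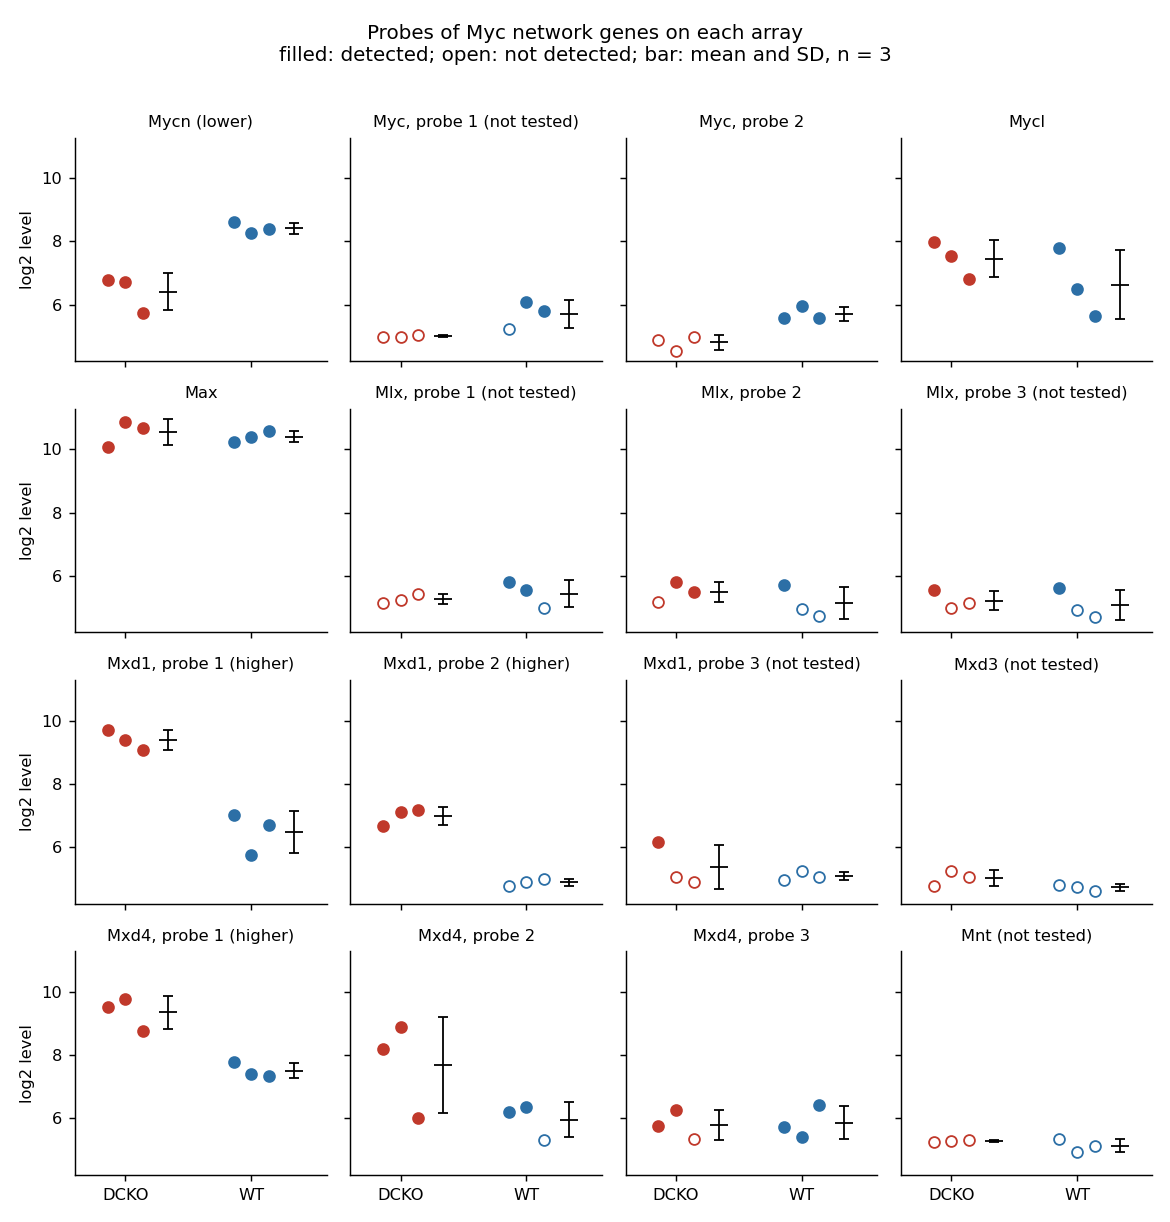
Log2 level of each of the 16 probes on each array (y axis, log2 of normalized intensity), with DCKO arrays on the left and WT arrays on the right of each panel; filled points were detected, open points were not, and bars give the mean and SD of 3 arrays. Mycn lies lower on all DCKO arrays, Mxd1 probes 1 and 2 and Mxd4 probe 1 lie higher, and Max lies between 10.08 and 10.87 on all 6 arrays.

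Mycn was the member called lower. Its gene lies on chr12:12936093-12941836 (GRCm38, Entrez gene 18109) and has 1 probe. The deposited intensity, before any correction, was 297, 256 and 225 on the 3 DCKO arrays, against 541, 440 and 497 on the 3 WT arrays. The standard error over the 32 to 46 beads of an array was at most 20.2, which covers the spread of beads within an array and not that between arrays. After normalization the log2 levels were 6.79, 6.71 and 5.74 in DCKO, against 8.60, 8.25 and 8.38 in WT. Every DCKO array lay below every WT array, with DCKO array 3 lowest, and the probe was detected on all 6 arrays. The log2 fold change was -2.00 with a standard error of 0.34 and a 95% interval of -2.81 to -1.19 (limma adjusted p = 0.0289). Without DCKO array 3 the log2 fold change was -1.66 (adjusted p = 0.0365). The call was lost without DCKO array 2 (adjusted p = 0.0529) and without WT array 1, 2 or 3 (adjusted p = 0.108, 0.0946 and 0.109), with log2 fold changes between -2.15 and -1.91.

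**Figure D2:**
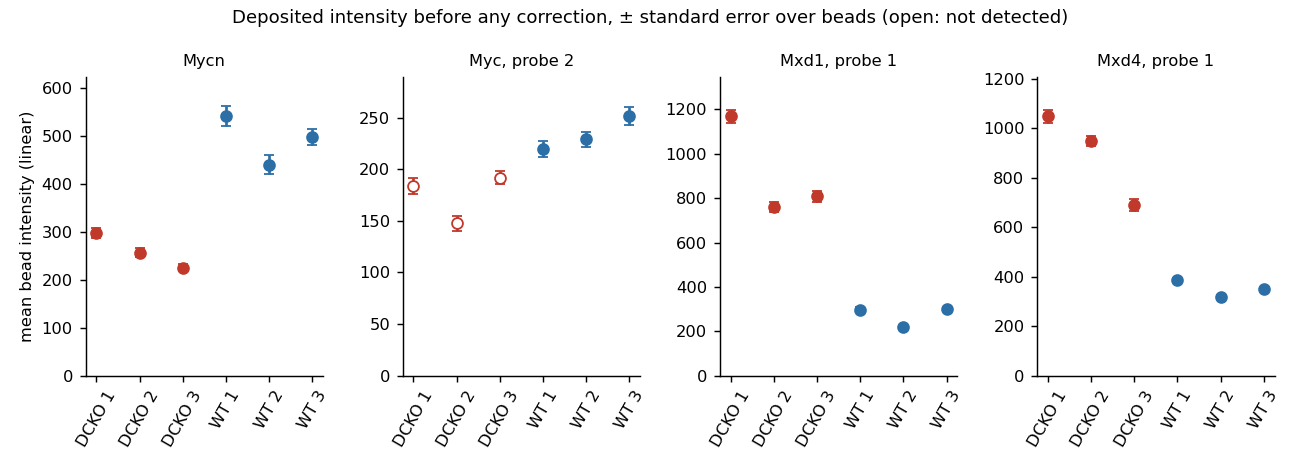
Deposited mean bead intensity (linear, before background correction or normalization) of 4 probes on each array, DCKO left and WT right; error bars are the standard error over beads and open points were not detected. The Mycn intensity was 225 to 297 in DCKO and 440 to 541 in WT, while Mxd1 probe 1 and Mxd4 probe 1 were brighter in DCKO.

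The Mycn promoter is shown because Mycn is the Myc factor that was called, and because it holds 2 matches to the E2F motif close to each other. The window runs from chr12:12941837-12942086 on the minus strand (RefSeq, GRCm38.p6), the 250 bases before the annotated start, with matches to the E2F motif in capitals.

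Mycn: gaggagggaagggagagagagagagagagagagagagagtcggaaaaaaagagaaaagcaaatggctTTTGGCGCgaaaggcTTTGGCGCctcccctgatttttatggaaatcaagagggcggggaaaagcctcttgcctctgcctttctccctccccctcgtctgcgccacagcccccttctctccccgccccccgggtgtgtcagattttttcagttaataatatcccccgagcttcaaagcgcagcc

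E2F proteins bind DNA at such motifs and drive genes of S phase. The motif was searched as TTTCCCGC or TTTGGCGC on both strands, from 250 bases before to 50 bases after each start. Mycn had matches at positions -183 to -176 and -168 to -161 relative to the start, which is position 0 and here the outer end of the annotated gene. Of 32851 promoters of this length, 1.56% held at least 1 match and 0.0396% (13 promoters) held at least 2. The Mycn window had 0 E-boxes (CACGTG) and 0 CRE motifs (TGACGTCA), the motif of the CBP-binding factor CREB. CRE motifs were found in 1.79% of all promoters and in 0 of the 8 Myc network promoters matched in the table. Myc was not matched.

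Myc (chr15:61985341-61990361, Entrez gene 17869) was near the detection limit on these arrays. Its probe 2 had log2 levels of 4.89, 4.53 and 4.99 in DCKO, detected on 0 of 3 arrays, against 5.58, 5.96 and 5.57 in WT, detected on 3 of 3. All DCKO arrays lay below all WT arrays. The log2 fold change was -0.89 (95% interval -1.48 to -0.31) and did not pass the test (adjusted p = 0.101). The call was made with scaling to the 75th percentile (-1.14, adjusted p = 0.0423) and with the authors' processed intensities (-1.39, adjusted p = 0.0401). Probe 2 passed the detection filter through WT alone and had to differ, so these calls are a description. Processed intensities below 16 were set to 16 before the log2 was taken. A fold between genotypes has only a lower bound where one of them was not detected, taken against the dimmest detected probes of each array, and for probe 2 DCKO was at least 1.21-fold lower. Probe 1, untested, had levels of 4.99, 4.99 and 5.05 in DCKO, detected on none, against 5.23, 6.09 and 5.79 in WT, detected on 2 of 3. The groups of probe 1 did not overlap, although WT array 1 came close to the DCKO arrays.

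Mycl (chr4:122995588-123002490, Entrez gene 16918), the third Myc factor, was detected on all 6 arrays. Its log2 levels were 7.98, 7.55 and 6.82 in DCKO, against 7.78, 6.49 and 5.63 in WT. The groups overlapped, and the WT arrays alone ran over more than the difference between the genotype means. The log2 fold change of 0.82 (95% interval -0.59 to 2.22) did not pass the test (adjusted p = 0.497), and the interval leaves room for an increase as large as the Mycn decrease.

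Max (chr12:76937269-76962323, Entrez gene 17187), the partner that Myc factors need to bind DNA, was bright in both genotypes. Its log2 levels were 10.08, 10.87 and 10.67 in DCKO, against 10.24, 10.40 and 10.57 in WT. The WT values lay inside the range of the DCKO values. The log2 fold change was 0.14 (95% interval -0.53 to 0.81, adjusted p = 0.836), and its sign turned to -0.030 without DCKO array 2.

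Mlx (chr11:101086707-101092207, Entrez gene 21428), the partner of Mlxip and Mlxipl, had 3 dim probes. Probe 2, the tested one, had log2 levels of 5.17, 5.80 and 5.49 in DCKO, against 5.70, 4.97 and 4.73 in WT. It was detected on 2 of 3 DCKO arrays and 1 of 3 WT arrays, and the groups overlapped. Its log2 fold change was 0.35 (95% interval -0.44 to 1.15, adjusted p = 0.610). Probes 1 and 3 lay between 4.98 and 5.54 in DCKO and between 4.71 and 5.80 in WT, and neither was tested.

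Mxd1 (chr6:86647044-86669234, Entrez gene 17119), a repressive Max partner known from cells that leave the cell cycle and differentiate, had the largest increase among these genes. The intensity of probe 1 before correction was 1170, 761 and 808 in DCKO, against 298, 221 and 301 in WT. Its log2 levels were 9.71, 9.40 and 9.08 in DCKO, against 7.02, 5.75 and 6.71 in WT. The groups did not overlap and the probe was detected on all 6 arrays. Mxd1 probe 1 was 7.49-fold higher in DCKO, a log2 fold change of 2.90 (standard error 0.38, 95% interval 1.98 to 3.83, adjusted p = 0.0131). The call was lost without WT array 3 (3.01, adjusted p = 0.0575).

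Mxd1 probe 2 had log2 levels of 6.66, 7.12 and 7.16 in DCKO, detected on 3 of 3 arrays, against 4.76, 4.91 and 4.99 in WT, detected on 0 of 3. DCKO was at least 2.92-fold higher, and the fitted log2 fold change was 2.10 (95% interval 1.53 to 2.67, adjusted p = 0.00772). This probe passed the detection filter through DCKO alone and had to differ, so its calls are a description. They were made under all 15 alternatives that could be run on it, with adjusted p from 0.00426 to 0.0492. The filter that required detection on all 6 arrays left it out. Probe 3, untested, was detected on DCKO array 1 alone, with levels of 6.15, 5.05 and 4.91 in DCKO, against 4.96, 5.24 and 5.07 in WT. The groups of probe 3 overlapped, so the probes of Mxd1 did not all separate the genotypes.

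The Mxd1 promoter is shown because Mxd1 had the largest increase among these genes by its brightest probe. The window runs from chr6:86669235-86669409 on the minus strand (RefSeq, GRCm38.p6), 175 bases that lie before the start and outside the annotated gene, with matches to the GC box in capitals, the motif of Sp1 family factors.

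Mxd1: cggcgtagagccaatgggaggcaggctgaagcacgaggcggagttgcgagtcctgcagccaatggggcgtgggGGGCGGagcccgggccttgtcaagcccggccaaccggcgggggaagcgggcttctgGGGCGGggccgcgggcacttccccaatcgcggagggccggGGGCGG

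The GC box was searched as GGGCGG on both strands. The start in the RefSeq table lies 75 bases inside the annotated Mxd1 gene, and positions count from it. The whole Mxd1 window held 6 matches, of which the pair nearest the start overlap each other (-11 to -6 and -7 to -2). At least 1 match was found in 35.7% of promoters of this length and at least 6 in 1.35%. The window held 0 E-boxes and 0 E2F motifs. Mxd3, whose probe was not detected on any array, had 8 GC boxes, several of them overlapping.

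Mxd4 (chr5:34176580-34187710, Entrez gene 17122), a close relative of Mxd1 and likewise a repressive Max partner, was called higher by 1 of its 3 tested probes. Probe 1, for which the annotation gives the gene symbol and no transcript accession, had intensities of 1050, 950 and 691 before correction in DCKO, against 385, 319 and 349 in WT. Its log2 levels were 9.51, 9.78 and 8.77 in DCKO, against 7.79, 7.39 and 7.35 in WT, with no overlap. Mxd4 probe 1 was 3.60-fold higher in DCKO, a log2 fold change of 1.85 (standard error 0.33, 95% interval 1.07 to 2.63, adjusted p = 0.0336). The call was lost without DCKO array 1 or 2 (adjusted p = 0.081 and 0.0711) and without WT array 1, 2 or 3 (adjusted p = 0.086, 0.119 and 0.126), with log2 fold changes of 1.63 to 1.99. With the mean of the probes in place of the brightest, the log2 fold change was 1.17 (adjusted p = 0.155).

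Mxd4 probe 2 had log2 levels of 8.18, 8.88 and 6.00 in DCKO, against 6.20, 6.34 and 5.33 in WT. DCKO array 3 lay within the WT values and the other DCKO arrays lay above them. The log2 fold change of 1.73 (95% interval -0.06 to 3.51) did not pass the test (adjusted p = 0.257), but did without DCKO array 3 (2.57, adjusted p = 0.0457). Probe 3 had levels of 5.76, 6.27 and 5.34 in DCKO, against 5.73, 5.42 and 6.43 in WT, with overlap and a log2 fold change of -0.07 (adjusted p = 0.944). The sign of probe 3 turned without DCKO array 3 (0.16) and without WT array 3 (0.21). The 3 probes of Mxd4 thus gave different answers, and which transcripts each of them reads is not known here.

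Mxd3 (chr13:55325170-55329900, Entrez gene 17121) and Mnt (chr11:74830806-74845725, Entrez gene 17428), the remaining antagonists, were not detected on any array. The Mxd3 levels were 4.76, 5.26 and 5.07 in DCKO, against 4.81, 4.75 and 4.62 in WT, and the Mnt levels were 5.26, 5.28 and 5.32 in DCKO, against 5.35, 4.93 and 5.13 in WT. Values in this range do not separate from the negative controls, so a change of either gene was not detectable here.

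DCKO array 3 had the lowest level of the DCKO arrays for Mycn, Mycl, Mxd1 probe 1 and all 3 Mxd4 probes, that is for genes called lower and genes called higher alike. Max and Mxd1 probe 2 did not share this order. In WT, Mycl and Mxd4 probe 1 were lowest on array 3 and Mxd1 probe 1 on array 2.

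**Figure D3:**
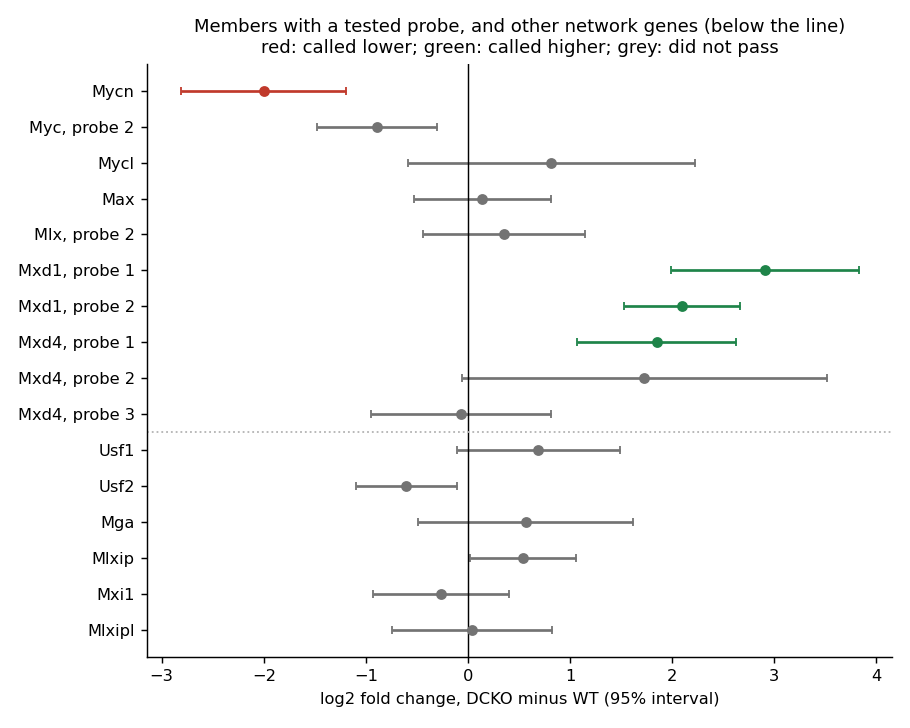
Log2 fold change, DCKO minus WT, of the 10 tested probes of the Myc network genes (above the dotted line) and of the brightest probe of 6 other genes of the Max and Mlx network (below it); bars are 95% intervals, red marks a probe called lower and green a probe called higher. Mycn stands at -2.00, Mxd1 at 2.90 and 2.10 and Mxd4 probe 1 at 1.85; the fitted values of Myc probe 2 and Mxd1 probe 2 rest on a genotype that was not detected.

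E-boxes, the motif that Max dimers bind, were found in the promoters of 4 of the 8 matched genes, Max, Mlx, Mxd4 and Mnt. Over the whole table, 8.09% of 27025 genes and 7.15% of 32851 promoters held one. Among the matched genes of the lists described further on, the motif was found in 10 of 37 Myc-activated genes and 3 of 13 Myc-repressed genes. It was found in 2 of 20 Myc cofactors and in 1 of 5 other Max and Mlx network genes. In the lists of regulators of Myc protein stability and of E2F factors it was found in 1 of 13 and 2 of 5. The motif was searched as CACGTG, which reads the same on both strands. It is shown in capitals with the bases on each side (RefSeq, GRCm38.p6), because these genes are themselves part of the network that reads it. The Max window is chr12:76962234-76962263 on the minus strand, the Mlx window chr11:101087238-101087267 on the plus strand, the Mxd4 window chr5:34187912-34187941 on the minus strand and the Mnt window chr11:74830789-74830818 on the plus strand.

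Max: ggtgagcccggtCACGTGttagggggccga
Mlx: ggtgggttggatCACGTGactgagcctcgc
Mxd4: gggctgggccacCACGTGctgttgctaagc
Mnt: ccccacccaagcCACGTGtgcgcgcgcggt

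Positions count from the start given in the RefSeq table, which for Max, Mlx and Mnt lies 75, 583 and 118 bases inside the annotated gene and for Mxd4 at its outer end. On that count the Max E-box spans the start, at positions -3 to 2, and the Mlx one lies at -40 to -35, so both lie within the annotated gene. Those of Mxd4 and Mnt lie at -219 to -214 and -123 to -118. Of these 4 genes, Mxd4 was called by probe 1, Max and Mlx did not pass the test, and Mnt was not tested. Mycn and Mxd1, which were called, had no E-box in this window. A match describes the letters in the window and says nothing of binding.

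The other genes of the Max and Mlx network were Usf1, Usf2, Mga, Mlxip, Mxi1 and Mlxipl. All 6 were tested and 0 were called in either direction, beside 4.88% of all tested genes. By the brightest probe, Usf1, an E-box factor of the same structural class, gave 0.69 (log2 fold change), and its relative Usf2 gave -0.61. The other probes of Usf2 gave 1.15 and 0.99, so the direction of Usf2 depended on the probe. Mga, a Max partner of the Polycomb-like PRC1.6 complex, gave 0.56 and 0.25 by its tested probes. Mlxip gave 0.54, Mxi1, the remaining Mxd family member, -0.26, and Mlxipl 0.04. The median of the 6 was 0.29, beside 0.01 over all tested genes. At an unadjusted p under 0.05, 2 of the 6 passed, beside 21.1% of all tested genes.

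Among genes that cooperate with Myc on chromatin, 19 of 23 were tested and 1 was called (5.26%, near the 4.88% of all tested genes), so the count says nothing particular of the list. The called gene was Dnmt3a, a de novo DNA methyltransferase that Myc can recruit to silenced promoters. Its brightest probe had log2 levels of 6.95, 7.41 and 7.08 in DCKO, against 8.33, 8.21 and 8.39 in WT. The log2 fold change was -1.16 (95% interval -1.71 to -0.62, adjusted p = 0.0437), with no overlap. The other tested Dnmt3a probe gave 0.75 (adjusted p = 0.383), and their mean gave -0.21 (adjusted p = 0.734). The Dnmt3a call was lost whichever single array was left out, with adjusted p from 0.0578 to 0.154. The list median was 0.02. Among members picked for mention after their values were seen, the acetyltransferase scaffold Trrap (-0.64) and the helicases Ruvbl1 (0.09) and Ruvbl2 (0.13) did not pass. The other tested probes of Ruvbl1 gave -0.27 and -0.31. The largest changes that did not pass were those of Cdk9 (-1.32), Kat5 (1.01) and Ep400 (-0.93), with adjusted p = 0.178, 0.27 and 0.081. Other tested probes gave -0.58 for Kat5 and 0.57 for Ep400, so the direction of both depended on the probe.

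Genes widely described as activated by Myc, in ribosome production, nucleotide and polyamine synthesis, metabolism and the cell cycle, were measured as a list of 44, of which 36 had a tested probe. Of these 1 was called (2.78%, beside 4.88% of all tested genes), Ccnd1 (cyclin D1), which drives entry into S phase. Its brightest probe had log2 levels of 11.25, 11.33 and 11.73 in DCKO, against 12.93, 12.70 and 12.67 in WT. All DCKO arrays lay below all WT arrays, and the 3 probes of Ccnd1 were each called lower, with log2 fold changes of -1.33, -1.44 and -2.09 (adjusted p = 0.0346, 0.027 and 0.0363). The last is a fitted value of a probe detected on 1 of 3 DCKO arrays, which was at least 4.04-fold lower. The brightest probe lost its call without DCKO array 1 or 2 (adjusted p = 0.0736 and 0.079) and without WT array 1, 2 or 3 (adjusted p = 0.121, 0.111 and 0.115).

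Over the 36 tested Myc-activated genes, 28 had a log2 fold change below 0 (77.8%, beside 49.1% of all tested genes) and the median was -0.34. The genotypes did not overlap for 20 of them (55.6%, beside 29.1% of all tested genes), and 14 of 36 had an unadjusted p under 0.05, beside 21.1% of all tested genes. The list was chosen with earlier results of these data known, so these shares are a description. The genes named next were picked after their values were seen. E2f2, an activating E2F factor, had log2 levels of 6.57, 7.53 and 6.60 in DCKO, against 8.64, 8.26 and 9.15 in WT, and narrowly missed the threshold (-1.78, adjusted p = 0.0505). Its other tested probe gave -1.50 (adjusted p = 0.0542). Ccnd2 (cyclin D2) gave -1.51, -1.53 and -1.67 by its 3 tested probes (adjusted p = 0.0708, 0.0541 and 0.268).

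The genes of ribosome production were spread on both sides of the threshold for an unadjusted p. By the brightest probe, the nucleolar helicase Ddx21 gave -0.95 (adjusted p = 0.0558), Ncl (nucleolin) -0.84 (adjusted p = 0.106) and the snoRNP protein Nop58 -0.79 (adjusted p = 0.0915), each with no overlap between genotypes. The other tested probes gave -0.91 for Ddx21 (adjusted p = 0.367, with overlap) and -1.03 for Ncl (adjusted p = 0.0537). That of Nop58 gave 0.29 (adjusted p = 0.7, with overlap), so the direction of Nop58 depended on the probe. Nop56, which works with Nop58 in the same particle, gave 0.48 (adjusted p = 0.343), and Npm1 (nucleophosmin) gave -0.14 (adjusted p = 0.756). In polyamine synthesis, Srm (spermidine synthase) gave -1.10 by its brightest probe (adjusted p = 0.0979), while Odc1 (ornithine decarboxylase) gave -0.15 (adjusted p = 0.782). The other tested probes of Srm gave -1.32 and 0.63 (adjusted p = 0.11 and 0.526), so its direction depended on the probe. Some members of the list lay above 0. Ldha (lactate dehydrogenase A) had log2 levels of 12.44, 12.45 and 12.48 in DCKO, against 11.66, 11.36 and 11.50 in WT, without overlap (0.95, adjusted p = 0.0575), and Cdk4 gave 0.70 (adjusted p = 0.142).

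Genes described as repressed by Myc were measured as a list of 15, of which 12 were tested. Of these, 1 was called higher and 1 lower (16.7%, beside 4.88% of all tested genes in either direction). Col1a2 and Ndrg1 passed the detection filter through DCKO alone and had to differ, so the count called higher and the list median are a description. Col1a2, a chain of type I collagen, had log2 levels of 6.83, 7.34 and 6.70 in DCKO, against 5.23, 5.07 and 5.26 in WT, where it was not detected. DCKO was at least 2.87-fold higher (fitted log2 fold change 1.77, adjusted p = 0.0164), and the call was lost without WT array 1, 2 or 3 (adjusted p = 0.0714, 0.0774 and 0.0736). Btg1, an antiproliferative gene, went the other way with log2 levels of 11.52, 10.78 and 11.06 in DCKO, against 12.52, 12.32 and 12.58 in WT. Its log2 fold change was -1.35 (adjusted p = 0.0441) and -1.59 by its other probe (adjusted p = 0.0457). The Btg1 call was lost without DCKO array 2 or 3 (adjusted p = 0.0909 and 0.0992) and without WT array 1, 2 or 3 (adjusted p = 0.136, 0.122 and 0.153).

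The median of the 12 Myc-repressed genes was 0.33, and it was -0.06 over the probes detected on all 6 arrays, so the side of 0 depended on the filter. Cdkn1a (p21), a cyclin-dependent kinase inhibitor and a much studied Myc-repressed gene, was chosen for mention after its values were seen, as were the genes that follow. Its log2 levels were 6.65, 7.52 and 6.64 in DCKO, against 4.80, 5.66 and 5.32 in WT, where it was detected on 1 of 3 arrays. The groups did not overlap, and the log2 fold change of 1.67 missed the threshold (adjusted p = 0.0538). Ndrg1, undetected in WT, was at least 2.04-fold higher in DCKO (adjusted p = 0.0505), while Cdkn1b (p27) gave 0.29 (adjusted p = 0.483) and Cdkn1c (p57) -0.29 (adjusted p = 0.547).

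**Figure D4:**
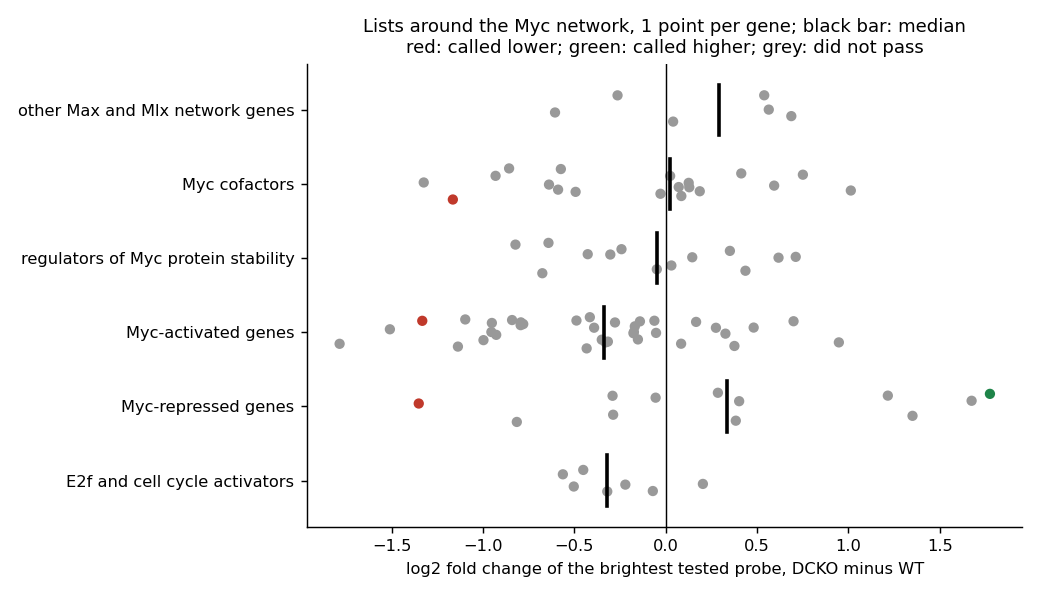
Log2 fold change, DCKO minus WT, of the brightest tested probe of each gene in 6 lists around the Myc network; each point is a gene, the black bar is the list median, red marks genes called lower and green genes called higher. The Myc-activated genes had a median of -0.34 and the Myc-repressed genes 0.33, and between them 2 genes were called lower and 1 higher.

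The genes whose values over the 6 arrays most resembled those of Mycn were taken by the root mean square difference on the log2 scale, after the mean of each probe was subtracted. Among 9848 named genes the median difference from Mycn was 1.14. The nearest was Olfr380, an olfactory receptor gene, at 0.154, with log2 levels of 6.68, 6.66 and 6.05 in DCKO, against 8.54, 8.11 and 8.31 in WT. Rprm (reprimo), a cell cycle arrest gene, followed at 0.203, Fndc3b at 0.218, the receptor phosphatase Ptpru at 0.229 and the NF-kappaB regulator Nfkbiz at 0.237. All 5 had their lowest DCKO level on array 3, as Mycn did, and log2 fold changes of -1.71 to -2.18. The likeness is over 6 arrays of 2 genotypes and was the rule by which they were named.

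**Figure D5:**
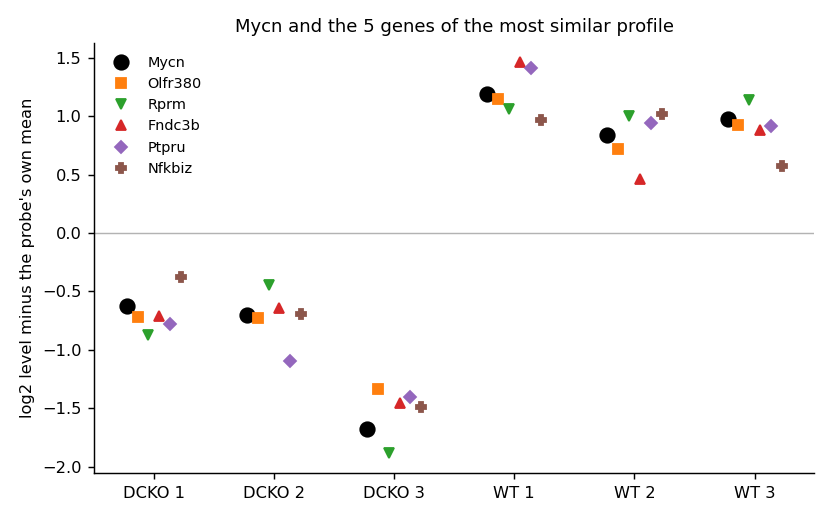
Log2 level minus the mean of the probe over all arrays (y axis) for Mycn and the 5 genes with the smallest root mean square difference from it, on each array (x axis), DCKO left and WT right. All 6 genes lie below their mean on the DCKO arrays, lowest on array 3, and above it on the WT arrays.

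Markers of several cell types moved with the genotype, and their part in the results above was not tested. The summed linear level of the 11 tested lens markers was 3725 to 4341 in DCKO, against 21047 to 23399 in WT. Of these, the crystallins Cryaa and Crybb3 were not detected on any DCKO array, while Pax6 (-0.71) and Six3 (-0.17) did not pass the test. The 10 epithelial markers summed to 9507 to 10886 in DCKO and 8441 to 10129 in WT, with Grhl2, Krt7, Trp63 and Krt8 called higher. Cdh1, the brightest of them and the only one below 0, gave -0.82 by its brightest probe (adjusted p = 0.126), with no overlap between genotypes. In such bulk tissue, fewer cells of a type and less RNA per cell cannot be told apart.

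Macrophage markers, 7 tested of 11, summed to 223 to 334 in DCKO and 1988 to 2768 in WT. Of these, 3 were called lower, beside 2.78% lower and 2.1% higher over all tested genes. By their brightest probes, Aif1 and Mpeg1 were detected on none of the DCKO arrays and on all WT arrays. Both entered the test through WT alone and had to differ. Csf1r (-0.72), Adgre1 (-1.03) and C1qb (-1.70) were each detected on 1 of 3 DCKO arrays. They did not pass the test (adjusted p = 0.146, 0.149 and 0.0669). Tyrobp, called lower, was also detected on 1 DCKO array, and C1qc, undetected in DCKO, gave a fitted -1.43 (adjusted p = 0.0973). Of the other tested Aif1 probes, 1 gave a fitted -3.07, also undetected in DCKO. Another gave -0.69 (adjusted p = 0.478), with overlap, and was detected on 2 of 3 arrays of each genotype. The 3 tested mesenchymal markers of 7 summed to 562 to 1022 in DCKO and 4321 to 4740 in WT, and this sum was set by Pdgfra, called lower at -3.60. The other tested members lay above 0, and the list median was 1.45. Foxc1 gave 1.47 (adjusted p = 0.157), and Prrx1, called higher and undetected in WT, gave a fitted 1.45. Prrx1 passed the detection filter through DCKO alone and had to differ, so its call and the list median are a description. Its other tested probes gave a fitted 1.31 and 1.47 and did not pass (adjusted p = 0.426 and 0.0639). Erythroid markers (4 tested of 6, 1 called lower) summed to 2596 to 3016 in DCKO and 4057 to 5079 in WT. The 3 tested neuronal markers summed to 437 to 743 in DCKO and 181 to 280 in WT, with Isl1 called higher. Of the others, Neurog2, undetected in WT, gave a fitted 2.62 (adjusted p = 0.0541), and Elavl3 gave -0.63 (adjusted p = 0.308). Endothelial and retinal markers, 3 and 2 tested, had 0 called, and summed to 113 to 146 and 172 to 204 in DCKO, against 169 to 366 and 238 to 347 in WT.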

How the data were processed

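Per the labels, total RNA was amplified to cDNA with a NuGEN kit and hybridised to 6 bead arrays. As these shared 1 chip, chip batches were not a factor. The authors deposited, for every probe, the mean bead intensity without normalization, its bead standard error and bead number, and a detection p-value against negative controls. They also deposited a table of processed, linear intensities, in which 25.3% of values were negative and every array had a median of 16.9. In the article, cubic spline normalization in GenomeStudio is named. Its version was not given in the sources used here.

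The intensities were background-corrected with the detection p-values, an offset of 16 was added, and quantile normalization was applied to log2 values (neqc, limma 3.58.1, R 4.3.3). Probes detected (p under 0.05) on 3 or more arrays entered lmFit and eBayes, DCKO minus WT, without a block, with Benjamini-Hochberg adjustment. The code was tested on simulated data. The number of arrays limits the precision.

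For a fold given as "at least", each array of the dimmer genotype took the level of its dimmest detected probe or the level of the probe in question, whichever was higher, and the mean of these was subtracted from the mean of the brighter genotype. Gene names came from the platform annotation (34885 probes with 1 symbol, 18 with several, 10378 unnamed here), and positions and promoters from RefSeq tables of assembly GRCm38.p6. The genes and lists were chosen with earlier results of these data known. The rule for named genes took every probe of the 9 genes, the targeted genes, the other network genes, the called genes of each list or else its 3 largest changes, and the 5 genes nearest to Mycn. Alternatives changed the background correction, normalization, filter, variance moderation, block, threshold or probe choice, used the authors' processed values, or left out each array.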

Additional observations from a re-analysis of the deposited data

How the results depend on the processing

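Across 17 alternatives, the log2 fold change of Mycn stayed between -2.19 and -0.93 and that of Mxd1 probe 1 between 1.60 and 3.17; that of Mxd4 probe 1 stayed between 1.17 and 2.14. The only changes of sign were those of Max without DCKO array 2 (-0.030) and of Mxd4 probe 3 without DCKO array 3 (0.16) or WT array 3 (0.21), none of them called. Without 1 array, Max ranged from -0.030 to 0.37 and Mxd4 probe 3 from -0.31 to 0.21. The count of tested probes called lower, 549, was 271 when detection on all 6 arrays was required, 156 with the replicate block and 1024 at an adjusted p under 0.1; the count called higher, 346, was 185, 49 and 736. Leaving out 1 array gave 170 to 398 lower and 59 to 222 higher. Of the 9 genes, 1 was called lower, but 2 with scaling to the 75th percentile or the authors' processed values, 0 with no filter and 0 to 1 without 1 array. That scaling and the processed values added Myc, by a probe that passed the detection filter through WT alone and had to differ. The number called higher, 2, was 1 with no filter, 1 with the mean of the probes and 0 to 2 without 1 array. With no filter, the adjusted p was 0.0536 for Mycn and 0.0566 for Mxd4 probe 1. The list genes called lower, 3, were 6 with an offset of 50, 10 with no background correction, 0 with no normalization, 1 with the processed values, 5 at a detection p under 0.01, 5 when detected on all 6 arrays, 8 with trend and robust moderation and 0 to 2 without 1 array. Those called higher, 1, were 2, 3, 3 and 2 under the first 4 of these, 2 with no filter, 4 at a detection p under 0.01, 3 with trend and robust moderation, 4 with the mean of the probes and 0 to 1 without 1 array. The causes were not tested. Without normalization the median log2 fold change of all tested genes was 0.15, in place of 0.01.

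With the replicate block, no gene of the 9 was called lower or higher (0 and 0) by its brightest probe, nor was any list gene (0 and 0). The adjusted p was then 0.0824 for Mycn, 0.0508 for Mxd1 probe 1 and 0.0848 for Mxd4 probe 1. Mxd1 probe 2, which passed the detection filter through DCKO alone, kept its call at 0.0492. The deviations of same-numbered arrays from their genotype means correlated at 0.0332, 0.0325 and 0.0105. These values are small, yet 6 of 6 arrays correlated best with the array of their own number. Each pair is counted from both of its arrays, and the deviations within a genotype sum to 0, so these matches are not independent. Whether same-numbered arrays shared a step of handling is not known here and was not tested. On arrays precision is set by signal over background: Myc, Mlx, Mxd3 and Mnt lay near the detection limit, where changes were not detectable or only bounded.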

Other observations

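Regulators of Myc protein stability were measured as a list of 16, of which 13 had a tested probe. In either direction 0 were called, beside 4.88% of all tested genes. The median log2 fold change was -0.05. The largest by the brightest probe were those of Usp28, a deubiquitinase that protects Myc, at -0.82 (95% interval -2.12 to 0.48), Axin1, a scaffold of Myc degradation, at 0.71 (95% interval 0.11 to 1.31), and the nucleolar deubiquitinase Usp36 at -0.67 (95% interval -1.55 to 0.20). The adjusted p were 0.457, 0.175 and 0.362. The other tested probe of Usp36 gave -1.29 (adjusted p = 0.284). Fbxw7, the ubiquitin ligase that marks phosphorylated Myc for destruction and was picked after its values were seen, gave -0.64 by probe 1 and 0.83 by its dimmer probe (adjusted p = 0.487 and 0.113), so its direction depended on the probe.

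E2F factors, which read the motif found in the Mycn promoter, were measured with their dimerization partners and pocket proteins as a list of 8. Of these, 7 were tested and 0 were called, beside 4.88% of all tested genes. The median was -0.32. The largest log2 fold changes in the list were those of the pocket proteins Rbl1 (-0.56, adjusted p = 0.273) and Rb1 (-0.50, adjusted p = 0.606) and of the activating factor E2f3 (-0.45, adjusted p = 0.280). The other tested probes gave -1.25 for Rbl1 (adjusted p = 0.0983), 0.36 for Rb1 (adjusted p = 0.672) and -0.70 for E2f3 (adjusted p = 0.390), so the direction of Rb1 depended on the probe. The activating factors E2f2 and E2f1, which stood in the list of Myc-activated genes instead, had lower values than any of these brightest probes, at -1.78 (adjusted p = 0.0505) and -0.78 (adjusted p = 0.34). By its brightest probe, E2f3 had log2 levels of 9.67, 9.88 and 9.69 in DCKO, against 10.16, 10.16 and 10.27 in WT, with no overlap between the genotypes.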
